A study of Mus musculus with 14 samples.

Results

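The mouse forkhead (Fox) genes encode a family of transcription factors that bind DNA through a shared winged-helix domain. Members were the protein-coding genes of the RefSeq annotation of GRCm38 whose symbol is Fox followed by a subfamily letter and a number. Foxk1, Foxk2 and Foxa2 were left out by the rule. This gave 41 of 21775 protein-coding genes, in 18 subfamilies named by letter. The measurements were peaks of chromatin immunoprecipitation followed by sequencing (ChIP-seq) for RNF2 and BAP1. A gene was counted as occupied in a library when a peak of that library touched the gene or the 1 kb on either side.

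RNF2 (RING1B) is a catalytic subunit of Polycomb repressive complex 1, which adds ubiquitin to histone H2A at silent developmental genes. BAP1 is the deubiquitinase that removes this mark and works in a complex that includes FOXK1 or FOXK2. Many forkhead factors set up tissues of the later embryo, such as liver, kidney and mesenchyme. In embryonic stem (ES) cells, genes of this kind are classical Polycomb targets. Other members act in most cells, among them the insulin-regulated FoxO factors and the cell-cycle factor FOXM1.

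All cells were C57BL/6 ES cells with a labelled age of embryonic day 3.5 to 4.5, and all had been treated for 4 days with 100 nM 4-OHT (4-hydroxytamoxifen) and 10 µM emricasan, a caspase inhibitor. RNF2 was mapped with an Abcam antibody in 2 wild-type libraries, in 2 BAP1 knockout libraries and in 1 RNF2 knockout library. BAP1 was mapped with a Genentech antibody in 1 library of BAP1-C91A cells and in 1 library of BAP1 knockout cells. Each of these 7 libraries had its own input library, which makes 14 samples. The C91A cells, labelled Bap1C91A/-, carry BAP1 without its catalytic cysteine and had been cross-linked in disuccinimidyl glutarate before the chromatin was prepared. Nothing in the labels says whether replicates came from separate cultures, so differences between them may be technical. The ES cell label could not be checked, because peak lists hold no expression of markers.

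The lists differed in depth. Tags after filtering ran from 32.5 M (mega) in the BAP1 knockout control to 415 M in the C91A library, per the file headers. The first wild-type and BAP1 knockout libraries held 58.4 and 54.1 M tags and 4038 and 7946 RNF2 peaks. The second held 149 and 139 M tags and 28770 and 39872 peaks. The headers also show a different version of the peak caller and a different fragment length for the first and the second libraries. Wild type and BAP1 knockout were therefore compared within the first pair and within the second pair, and a call across all 4 libraries was made beside them. The RNF2 knockout control held 0 peaks. With 2 libraries against 2, an exact two-sided permutation test cannot give a p below 0.333, and BAP1 has 1 library per genotype, so all comparisons are given as values without a test.

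Promoter sequences of 6 members are printed first, because they span the range of occupancy described afterwards. Foxb2 had the highest BAP1 enrichment of the family. Foxa1, which opens closed chromatin in the endoderm and later the liver, was occupied in every RNF2 library, whereas its relative Foxa3, a hepatocyte factor, was unoccupied in the first wild-type library. The Foxi genes differed in the same way: Foxi3, a factor of the ectodermal placodes, was occupied in every RNF2 library, Foxi2 in all but the first wild-type library and Foxi1, a factor of ion-transporting cells of the ear and kidney, in none. Each sequence is the RefSeq window of GRCm38.p6 from 250 bases before to 50 after the annotated start, printed 5′ to 3′ on the strand of the gene, with every CG dinucleotide in capitals. The windows are chr19:16873781-16874080 (minus strand) for Foxb2, chr12:57546062-57546361 (minus) for Foxa1, chr7:19023490-19023789 (minus) for Foxa3, chr6:70956356-70956655 (plus) for Foxi3, chr7:135410117-135410416 (plus) for Foxi2 and chr11:34208040-34208339 (minus) for Foxi1. The start used for Foxa1 lies 1918 bp inside the gene span.
Foxb2: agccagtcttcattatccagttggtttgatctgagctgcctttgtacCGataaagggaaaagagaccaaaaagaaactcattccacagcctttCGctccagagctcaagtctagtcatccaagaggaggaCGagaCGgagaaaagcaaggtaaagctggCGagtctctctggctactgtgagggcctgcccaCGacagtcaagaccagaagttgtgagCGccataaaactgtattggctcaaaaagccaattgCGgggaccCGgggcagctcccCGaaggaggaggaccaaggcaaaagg
Foxa1: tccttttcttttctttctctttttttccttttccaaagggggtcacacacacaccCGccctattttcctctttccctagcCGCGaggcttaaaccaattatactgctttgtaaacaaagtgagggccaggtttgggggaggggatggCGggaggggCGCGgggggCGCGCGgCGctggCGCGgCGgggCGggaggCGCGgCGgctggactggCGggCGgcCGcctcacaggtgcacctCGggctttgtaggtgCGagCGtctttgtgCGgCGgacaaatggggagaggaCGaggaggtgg
Foxa3: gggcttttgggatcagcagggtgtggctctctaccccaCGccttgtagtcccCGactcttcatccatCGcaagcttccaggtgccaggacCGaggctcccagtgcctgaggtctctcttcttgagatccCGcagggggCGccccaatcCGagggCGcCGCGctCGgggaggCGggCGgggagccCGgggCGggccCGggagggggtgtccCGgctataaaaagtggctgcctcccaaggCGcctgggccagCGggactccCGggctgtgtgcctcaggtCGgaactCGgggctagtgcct
Foxi3: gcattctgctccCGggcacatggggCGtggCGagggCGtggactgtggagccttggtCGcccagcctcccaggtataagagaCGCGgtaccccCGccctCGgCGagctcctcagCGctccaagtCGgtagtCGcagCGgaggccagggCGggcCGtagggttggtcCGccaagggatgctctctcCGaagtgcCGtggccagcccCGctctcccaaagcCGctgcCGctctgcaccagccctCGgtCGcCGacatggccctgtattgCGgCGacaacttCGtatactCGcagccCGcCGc
Foxi2: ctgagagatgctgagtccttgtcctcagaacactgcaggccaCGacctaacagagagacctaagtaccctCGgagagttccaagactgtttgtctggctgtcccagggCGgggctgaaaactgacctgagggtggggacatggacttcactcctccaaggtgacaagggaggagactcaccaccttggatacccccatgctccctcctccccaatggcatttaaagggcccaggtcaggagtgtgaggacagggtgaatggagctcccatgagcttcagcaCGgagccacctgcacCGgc
Foxi1: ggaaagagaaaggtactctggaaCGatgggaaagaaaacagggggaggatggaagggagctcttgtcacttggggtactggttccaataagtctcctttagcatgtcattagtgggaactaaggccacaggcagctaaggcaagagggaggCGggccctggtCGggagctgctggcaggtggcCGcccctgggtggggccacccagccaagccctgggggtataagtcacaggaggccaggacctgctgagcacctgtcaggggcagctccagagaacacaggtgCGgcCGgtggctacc

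These windows held 10 CG dinucleotides at Foxb2, 26 at Foxa1, 22 at Foxa3, 31 at Foxi3, 5 at Foxi2 and 6 at Foxi1. The median over the 21262 promoter windows of protein-coding genes in the table was 13, with quartiles of 4 and 24. Foxb2 therefore lay below the median and Foxa3 near the upper quartile. These are counts in windows of 300 bases at picked genes, and a link to occupancy was not tested. Promoter windows were matched for 26 of the 41 members (63.4%), fewer than the 80% a comparison of base composition between classes would need, so that comparison is void. The forkhead core motif TGTTTAC, searched on both strands (reverse complement GTAAACA), was found in the window of 1 matched member, Foxa1, and in 3.01% of all windows. This is a match of letters and not a measured site.

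In each library the share of forkhead genes with RNF2 stood above the share of all genes. In the first wild-type library 23 of 41 members held a peak, against 13.4% of all genes, and in the second 38 of 41 did, against 55.2%. In the BAP1 knockout the counts were 32 in the first library (26.9% of all genes) and 38 in the second (63.5%). The same 23 members had peaks in both wild-type libraries (13.4% of all genes) and in all 4 (13% of all genes), and 32 had peaks in both BAP1 knockout libraries (26.9%). Only 3 members had no RNF2 peak in any library, against 35.1% of all genes. BAP1 was found at 18 members in C91A cells, against 4.52% of all genes, and at 0 in the BAP1 knockout control (0.124% of all genes), whose library was much shallower. Most of these BAP1 peaks lie close to the cutoff of the list: with a −log10 q of at least 10, BAP1 was left at 3 members (Foxb2, Foxd1 and Foxd2), against 0.101% of all genes. The classes built on BAP1 use all listed peaks.

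By these calls the members fell into 5 classes. The first held RNF2 in all 4 libraries and BAP1, with 18 members. The second held RNF2 in all 4 without BAP1, with 5 members. The third held RNF2 in all but the first wild-type library, with 9 members. The fourth held it in the second libraries only, with 6 members, and the last had no RNF2, with 3 members. No other combination of the RNF2 libraries occurred among the 41, whereas 11.4% of all genes showed another one.

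**Figure D1:**
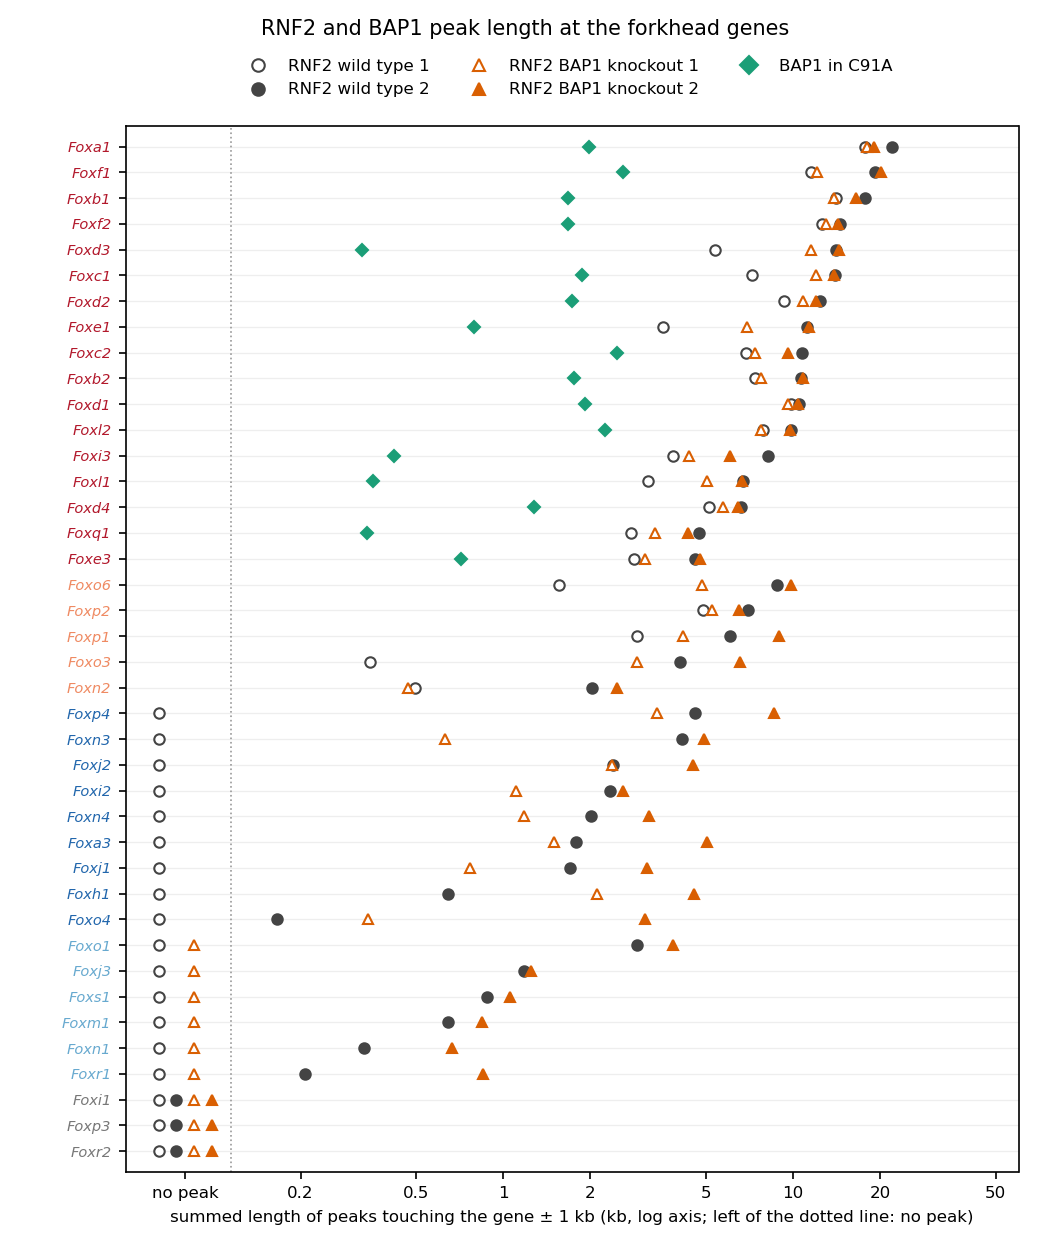
Summed length in kb (log axis) of the peaks that touch each of 40 forkhead genes or the 1 kb beside it, with 1 point per library; genes are coloured and ordered by class (from the top: RNF2 in all 4 libraries and BAP1, RNF2 in all 4 without BAP1, all but wild type 1, second libraries only, none), and points left of the dotted line mark libraries with no peak. The 17 genes with BAP1 drawn here hold at least 2.76 kb of RNF2 in every library, and circles and triangles of the second libraries lie close together there.

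In most subfamilies either all or none of the members held RNF2 in both wild-type libraries. Subfamilies with 1 member, such as Foxq, Foxh, Foxm and Foxs, could not be divided. In 8 subfamilies, among them Foxb, Foxc, Foxd, Foxe, Foxf, Foxl and Foxq, every member held RNF2 in both wild-type libraries, and these 16 members all held BAP1. In 5 subfamilies, Foxh, Foxj, Foxm, Foxr and Foxs, none of the 8 members held RNF2 in both wild-type libraries and none held BAP1. All of these 8 but Foxr2 did hold RNF2 in the second wild-type library, and the members of Foxj and of Foxr fell into different classes. The remaining 5 subfamilies were divided. Of the 17 members of Foxa, Foxi, Foxn, Foxo and Foxp, 7 held RNF2 in both wild-type libraries and 2, Foxa1 and Foxi3, held BAP1. Foxn, Foxo and Foxp thus included genes with RNF2 in all 4 libraries and yet no BAP1 peak within 1 kb.

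The 18 members with BAP1 are mostly regulators of tissue formation, among them Foxa1 and Foxe1 (thyroid) in endoderm, Foxb1 and Foxd3 (neural crest) in the nervous system, Foxe3 in the lens, Foxi3 in placodes, Foxc1, Foxc2, Foxf1, Foxf2, Foxl1, Foxd1 and Foxd2 in mesenchyme or kidney stroma, Foxl2 in the ovary and Foxq1 in the hair follicle. Foxb2 and Foxd4 also belong to the group. All 18 held RNF2 in both wild-type libraries, a combination found at 2.23% of all genes. Among all genes with BAP1, 49.3% held RNF2 in both wild-type libraries, and among all genes with RNF2 in all 4 libraries 16.9% held BAP1, against 18 of 23 members.

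These 18 genes are short, from 1515 to 7402 bp, and RNF2 usually covered them from end to end. The whole gene lay under RNF2 peaks in 13 of the 18 in the first wild-type library and in 16 in the second, and in 15 in each BAP1 knockout library. The median RNF2 length was 7.32 and 11.0 kb in the first and second wild-type libraries and 8.70 and 11.1 kb in the BAP1 knockout libraries. The gene with the smallest covered share was Foxi3, with 34.5% of its span in the first wild-type library and 98.5% in the second. Foxq1 and Foxl1 were also covered in part in the first library, to 71.6% and 67.4%.

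Values of 9 of the 10 members with the highest BAP1 fold enrichment follow, with RNF2 lengths in the order wild type first and second library, then BAP1 knockout first and second library. Fold enrichment is the peak caller's ratio of the pileup at a summit to the local background. Foxb2 (chromosome 19, 16872316 to 16873830) had RNF2 over 7.39, 10.6, 7.79 and 10.8 kb and 6 BAP1 peaks of 1.75 kb in sum, with the top fold of 5.89. Foxd2 (chromosome 4, 114906280 to 114908898) had RNF2 over 9.28, 12.4, 10.8 and 12.0 kb and BAP1 over 1.72 kb with a fold of 5.60. The kidney stroma gene Foxd1 (chromosome 13, 98354245 to 98356705) had 9.85, 10.5, 9.60 and 10.4 kb and BAP1 over 1.91 kb at 5.21. At all 3 genes the second libraries gave the longer RNF2 peaks, and the knockout to wild-type ratio within a pair was at most 1.17. Foxf2 (chromosome 13, 31625816 to 31631406), of craniofacial and gut mesenchyme, had RNF2 over 12.5, 14.6, 13.0 and 14.3 kb and BAP1 over 1.68 kb at 5.14. Foxl2 (chromosome 9, 98955607 to 98958126) had 7.88, 9.88, 7.78 and 9.76 kb and the longest single BAP1 peak of the family, 2076 bp, at 4.87. Foxa1 (chromosome 12, 57540628 to 57548029) had 17.8, 21.9, 18.0 and 19.1 kb and the most BAP1 peaks, 7, at 4.60. The order of the BAP1 folds is thus not the order of RNF2 length. Foxd4 (chromosome 19, 24898943 to 24901016) had 5.13, 6.62, 5.75 and 6.47 kb, with 4 BAP1 peaks at 4.53. Foxc1 (chromosome 13, 31806646 to 31810635) had 7.25, 14.0, 12.0 and 13.9 kb, with 5 BAP1 peaks at 4.29. The first wild-type library was thus the low one at Foxc1, and the other 3 lay close together. Foxe3 (chromosome 4, 114924443 to 114926067) had the shortest RNF2 of these 9, at 2.83, 4.60, 3.08 and 4.77 kb, and 1 BAP1 peak of 0.713 kb at 4.23.

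The other 8 members with BAP1, Foxc2, Foxf1, Foxe1, Foxb1, Foxd3, Foxq1, Foxi3 and Foxl1, had BAP1 folds from 4.13 down to 3.18. Their RNF2 lengths ran from 2.76 kb (Foxq1) to 14.0 kb (Foxb1) in the first wild-type library and from 4.76 to 19.2 kb (Foxf1) in the second. Foxd3, which is also known as a factor of ES cells and the epiblast, had 5.40, 14.1, 11.5 and 14.4 kb of RNF2 and only 0.326 kb of BAP1, the smallest BAP1 length of the 18. By the shorter of both wild-type libraries, 4 of the 5 widest members were Foxa1, Foxb1, Foxf2 and Foxf1. In the first wild-type list the Foxa1 peak was the 20th longest of 4038, and in the second it was the 35th longest of 28770. The Foxa1 peak also touched Ttc6 and, in the second wild-type library, the Foxf1 peak touched Mthfsd, so these peaks are not the property of the forkhead gene alone.

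**Figure D2:**
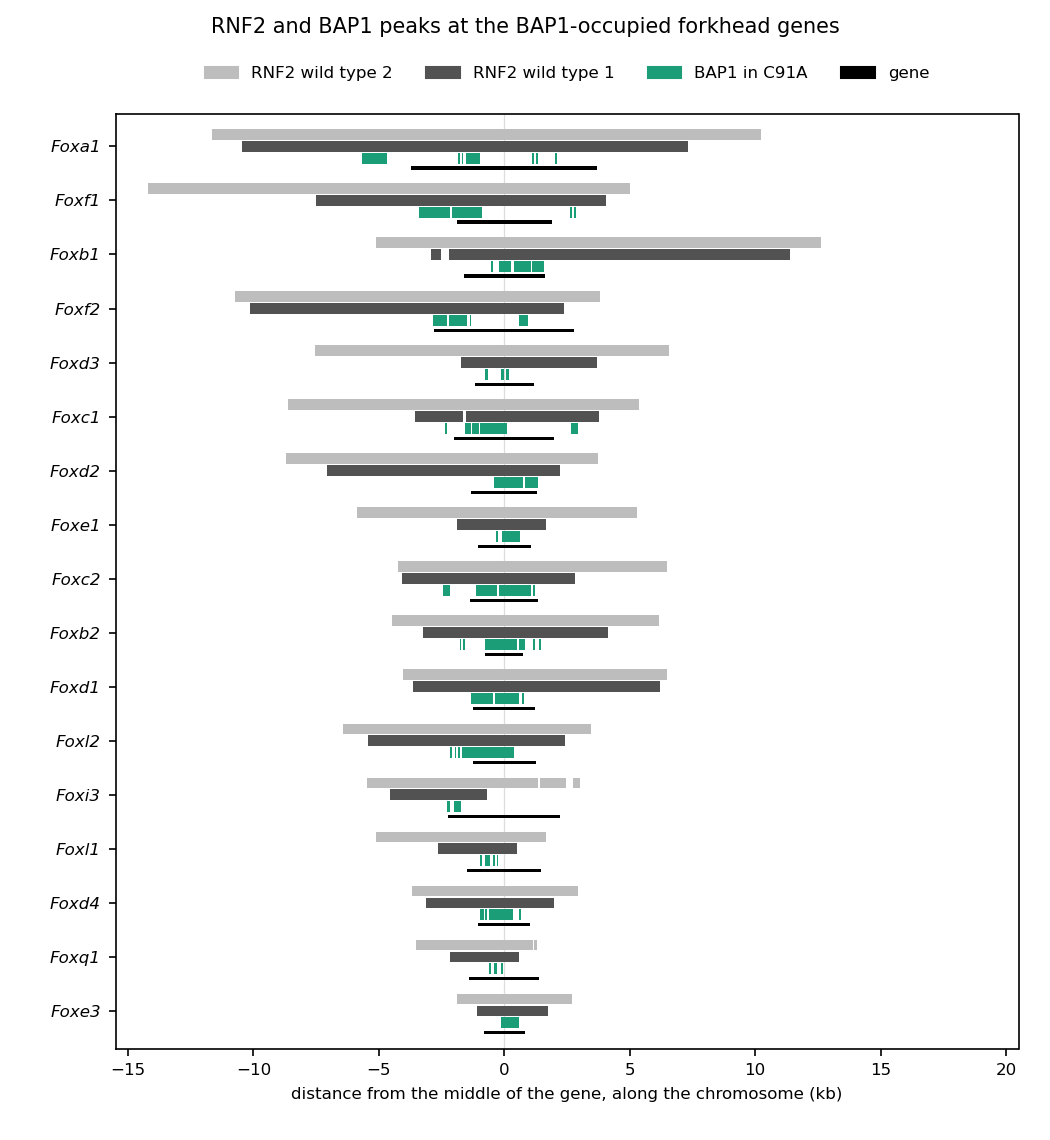
Peaks at 17 of the 18 BAP1-occupied forkhead genes drawn to scale as distance in kb from the middle of each gene, with RNF2 in the second (light grey) and first (dark grey) wild-type library, BAP1 in C91A cells (green) and the gene (black line). BAP1 peaks occupy short stretches at or beside the gene, while RNF2 extends beyond most genes on both sides, with up to 21.9 kb in all at Foxa1.

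BAP1 peaks at the forkhead genes were narrow, like those of the whole list, and lay inside the RNF2 regions. The 18 genes held 68 BAP1 peaks of 52 to 2076 bp (median 125.5 bp, against 120 bp over the whole list), with 1 to 7 per gene. Of these, 46 lay inside the gene, 8 crossed a gene end and 14 lay outside it. In the second wild-type library and in both BAP1 knockout libraries all 68 were contained in an RNF2 peak, and 67 were in the first wild-type library, where the remaining Foxc1 peak overlapped an RNF2 peak in part. Of all 2395 BAP1 peaks, 76.6% and 84.3% were contained in RNF2 peaks of the first and second wild-type libraries, and 78.9% and 88.5% in those of the BAP1 knockout libraries. The fragment length used for the BAP1 list was 50 bp, which bears on how short its peaks can be.

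Promoter windows were available for 11 of these 18 genes. RNF2 covered all 300 bases of each of the 11 windows in all 4 libraries. BAP1 touched 7 of the 11 windows and covered 1, that of Foxl2, in full. The BAP1 peak nearest to the start lay at most 421 bp away, at Foxd3. For the sequences printed above, BAP1 overlapped 120 bases of the Foxb2 window, 111 of the Foxi3 window and 30 of the Foxa1 window.

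Several of these genes are neighbours. On chromosome 13, Foxq1, Foxf2 and Foxc1 lie within 254 kb (31557170 to 31811635, the outer kb included), of which RNF2 covered 10.6% and 13.7% in the wild-type libraries and 11.5% and 13.3% in the BAP1 knockout libraries. On chromosome 8, Foxf1, Foxc2 and Foxl1 lie within 48.3 kb (121083386 to 121131644), with RNF2 over 36.5% and 55.7% in wild type and 43.2% and 58.7% in the knockout. On chromosome 4, Foxd2 and Foxe3 lie within 21.8 kb (114905280 to 114927067), with 45.0% and 66.0% in wild type and 53.5% and 66.4% in the knockout. No peak of either wild-type library touched 2 members. In the second wild-type library, however, the Foxc2 peak ended at 121124009 and the Foxl1 peak started at 121124067. This gap was shorter than the 100 bp fragment length of that list, so RNF2 ran almost without a break between both genes. The loci held 14, 12 and 3 BAP1 peaks.

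BAP1 was found with long rather than short RNF2 regions. Among the 23 members with RNF2 in all 4 libraries, BAP1 was present at 13 of 13 with at least 5 kb of RNF2 in the first wild-type library, against 87.3% of all such genes. It was present at 5 of 7 with 2.5 to 5 kb (40.6% of all genes), at 0 of 1 with 1 to 2.5 kb (6.39%) and at 0 of 2 with less than 1 kb (2.82%). The 2 members without BAP1 in the middle range were Foxp1 and Foxp2. Across the 18 genes with BAP1, the rank correlation (Spearman) of RNF2 length with BAP1 length was 0.61 for the first wild-type library and 0.37 for the second, and that of RNF2 length in the first with BAP1 fold was 0.55. These describe 18 genes measured in the same libraries.

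**Figure D3:**
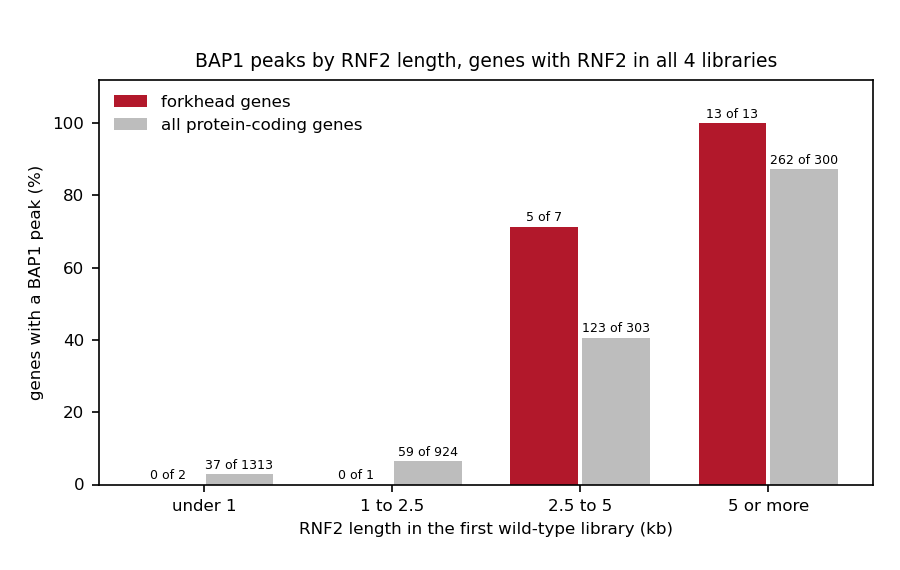
Percent of genes with a BAP1 peak in C91A cells by summed RNF2 length in the first wild-type library (kb), for forkhead genes (red) and all protein-coding genes (grey) with RNF2 in all 4 libraries; labels give the number with BAP1 of the number in the bin. In both sets the share is highest at 5 kb or more, with 13 of 13 forkhead genes and 262 of 300 genes.

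The 5 members with RNF2 in all 4 libraries and no BAP1 were Foxp1, Foxp2, Foxo3, Foxo6 and Foxn2. They are long genes, from 20184 to 597405 bp, of which RNF2 covered at most 6.79% and 34.8% in the wild-type libraries and 20.6% and 37.8% in the BAP1 knockout libraries. All 4 of these maxima were at Foxo6, and at the other 4 genes the covered share was at most 4.42% in any library. Foxp1 and Foxp2, factors of the developing brain with Foxp2 known for vocal learning, had long RNF2 regions: 2.90, 6.08, 4.17 and 8.97 kb at Foxp1, in the library order used above. At Foxp2 they were 4.90, 7.01, 5.25 and 6.53 kb. Their folds in the first wild-type library, 12.0 and 10.2, lie within the range of the BAP1-occupied genes, 7.96 to 21.6. Foxo6, a FoxO factor of the brain, had 1.55, 8.78, 4.84 and 9.85 kb, and Foxo3 had 0.347, 4.07, 2.89 and 6.59 kb. Foxn2 had 0.496, 2.02, 0.471 and 2.47 kb, less than the other 4 in every library but the first wild type, where Foxo3 had less. Around Foxo3 a BAP1 peak lay 1240 bp from the start, outside the 1 kb window, so with a window of 5 kb on each side 19 members held BAP1.

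Gains of RNF2 in BAP1 knockout cells were counted within each library pair. In the first pair, 9 of the 18 members without a wild-type peak held a peak in the knockout, against 16% of all such genes. In the second pair, 0 of the 3 members without a wild-type peak did (21.5% of all such genes). With only 3 members to count, the second pair cannot show whether gains differ from those of the first. Losses were 0 of 23 in the first pair (2.81% of all genes with a peak) and 0 of 38 in the second (2.54%). Other settings gave single losses. With RNF2 lists shortened to equal length, 1 of 23 (Foxn2, against 17.2% of all such genes) was lost in the first pair. When the summit had to lie in the window, 1 of 21 (Foxp2, 3.85%) was lost in the first pair and 1 of 38 (Foxa1, 3.03%) in the second. Across all 4 libraries, 0 of 3 members were gained (0.298%) and 0 of 23 were lost (0% of all genes). All 9 of these gained genes were already occupied in the deeper second wild-type library.

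The 9 genes were Foxa3, Foxh1, Foxi2, Foxj1, Foxj2, Foxn3, Foxn4, Foxo4 and Foxp4. Foxh1 (chromosome 15, 76667829 to 76671614), the DNA-binding partner of SMAD2 in Nodal signalling, held 0 kb in the first wild-type library, 0.646 kb in the second, and 2.12 and 4.55 kb in the BAP1 knockout libraries. Foxj1 (chromosome 11, 116330704 to 116335499), the master factor of motile cilia, held 0, 1.70, 0.768 and 3.15 kb in the same order. Foxa3 (chromosome 7, 19013283 to 19023539) held 0, 1778, 1499 and 5071 bp. At each of these genes both knockout libraries were above the wild-type library of their own pair, while the first knockout library was below the second wild-type library at Foxj1 and Foxa3 and above it at Foxh1. Foxo4 (chromosome X, 101254261 to 101260873), a FoxO factor, held 0, 0.166, 0.341 and 3.09 kb. Foxp4 (chromosome 17, 47867133 to 47924632) held 0, 4.58, 3.40 and 8.59 kb. Foxn4 (chromosome 5, 114254164 to 114274418), a factor of retinal progenitors, held 0, 2.02, 1.19 and 3.18 kb. Again the second knockout library gave the longest RNF2. Foxj2 (chromosome 6, 122820184 to 122845366) held 0, 2.39, 2.37 and 4.53 kb. Foxn3 (chromosome 12, 99190081 to 99563667) held 0, 4.14, 0.631 and 4.94 kb. Foxi2 (chromosome 7, 135410367 to 135413622) held 0, 2.35, 1.11 and 2.60 kb. At these 3 genes the second wild-type library was above the first knockout library.

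These gained regions were weaker than those of the BAP1-occupied genes in the first knockout library, with folds of 2.56 to 5.68 against 13.3 to 29.8. Peaks of the second wild-type library at Foxa3, Foxh1, Foxj1 and Foxn3 also touched a neighbouring gene, Sympk, Ppp1r16a, Rnf157 and Gm51999 in that order. When all RNF2 lists were shortened to the length of the shortest by their own p-values, 3 of 18 members without a wild-type peak were gained in the first pair (Foxa3, Foxj2 and Foxp4), against 5.38% of all such genes, and 1 of 23 was lost (Foxn2, against 17.2%). In the second pair 3 of 16 were gained (Foxa3, Foxj1 and Foxp4), against 3.64%, and 0 of 25 lost (14.1%). Foxa3 and Foxp4 were then gained across all 4 libraries, 2 of 15 against 2.01%.

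The count of members with wider RNF2 in the knockout differed between the pairs. In the first pair, the 23 members with RNF2 in all 4 libraries had median lengths of 5.40 kb (wild type) and 7.42 kb (knockout). The ratio of these medians was 1.37, against 2.08 over all such genes, and the median gene-by-gene ratio was 1.09, against 1.69. Of the 23, 18 were wider in the knockout (93.7% of all such genes). In the second pair the medians were 10.5 and 9.85 kb, a ratio of 0.936, against 1.14 over all such genes. The median gene-by-gene ratio was 0.988, against 1.09, and 9 of 23 were wider (71.8% of all such genes). Split by BAP1, the ratio of medians in the second pair was 1.01 with BAP1 and 1.08 without, both above the pooled 0.936. Pooled over BAP1, the 23 members were thus wider in the knockout less often than all such genes in either pair. This difference was not tested, and the sets are unlike. BAP1 was at 18 of the 23, against 16.9% of all such genes. The median length in the first wild-type library was 5.40 kb, against 1.1 kb. With BAP1, 14 of 18 (first pair) and 5 of 18 (second pair) were wider, against 86.1% and 49.7%. Without BAP1, 4 of 5 were wider in each pair, below the 95.2% of all such genes in the first but not below the 76.3% in the second. The lengths kept their order, with a rank correlation over the 23 genes of 0.87 between the wild-type libraries and 0.95 within each pair.

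In the second pair the genes with BAP1 and those without gave different counts, a difference that was not tested. Of the 18 with BAP1, 5 were wider in the knockout, against 66.8% of all genes with BAP1 and RNF2 in both second libraries. For all genes with BAP1 and RNF2 in all 4 libraries the share was 49.7%. Gene by gene, the ratio of knockout to wild type at the 18 members ran from 0.741 to 1.05. For 15 of them the lengths were within 10% of each other. The lowest ratio was that of Foxi3, with 8.18 kb in wild type and 6.06 kb in the knockout, followed by Foxa1 (21.9 and 19.1 kb) and Foxc2 (10.7 and 9.60 kb). Of the 20 members without BAP1 that had RNF2 in both second libraries, 19 were wider in the knockout, against 86.9% of all such genes, and the exception was Foxp2. The 9 genes gained in the first pair were all wider in the second, as were 94.6% of all genes of that class. Their median ratio was 1.87, with a range of 1.11 to 18.6, against a median of 1.64 over all genes of that class. The highest ratios were those of Foxo4 (166 to 3090 bp), Foxh1 (646 to 4549 bp) and Foxa3 (1778 to 5071 bp). BAP1 and RNF2 length cannot be told apart here, since few genes with and without BAP1 had similar lengths. The 18 with BAP1 started from at least 4.60 kb in the second wild-type library and the 20 others from 0.166 to 8.78 kb. Where these ranges overlap lie Foxd4, Foxe3, Foxi3, Foxl1 and Foxq1 with BAP1 and Foxo6, Foxp1 and Foxp2 without. Of these, Foxe3, Foxo6 and Foxp1 were wider in the knockout.

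In the first pair, unlike the second with 5 of 18, the genes with BAP1 were wider in the knockout in most cases. These were 14 of 18 (86.1% of all such genes), and the median ratio of the 18 was 1.08. The ratio was at least 1.5 at 4 of them: Foxd3 (5.40 to 11.5 kb), Foxe1 (3.56 to 6.95 kb), Foxc1 (7.25 to 12.0 kb) and Foxl1 (3.17 to 5.05 kb). The same 4 genes had knockout to wild-type ratios of 1.02, 1.01, 0.990 and 0.992 in the second pair, and their second wild-type lengths were above those of the first knockout library. Among the genes without BAP1, Foxo3 had the highest ratio in the first pair, from 347 to 2888 bp, and went from 4067 to 6587 bp in the second. Foxo6 went from 1555 to 4841 bp and from 8779 to 9851 bp.

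**Figure D4:**
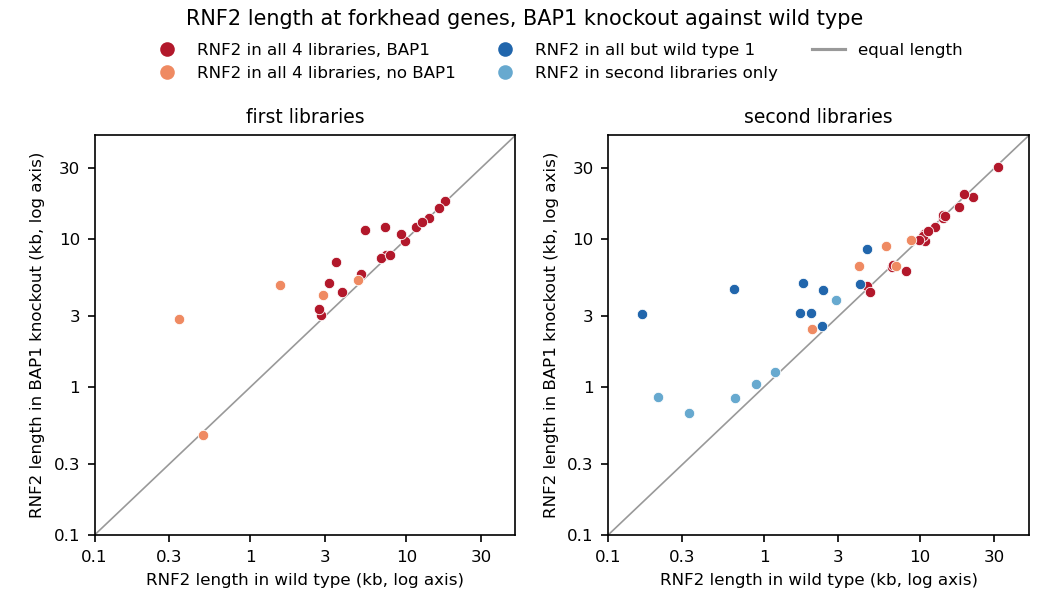
Summed RNF2 length in BAP1 knockout against wild type (kb, log axes) for forkhead genes with a peak in both libraries of the pair, with the first libraries on the left and the second on the right; points are coloured by class and the grey line marks equal length. In the second libraries the 18 genes with BAP1 lie on or near the line, with ratios from 0.741 to 1.05, and the 9 genes of the class in blue all lie above it.

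Peak height could not be compared in the same way. The pileup of a list that keeps 1 tag per position and strand cannot pass 2 times the fragment length, which is 200 for the second RNF2 libraries. All 18 members with BAP1 reached at least 95% of this ceiling in the second wild-type and in the second knockout library, as did 3 of the 5 members with RNF2 in all 4 libraries and no BAP1. None of the 23 did so in the first libraries. There the median fold of the 18 genes was 13.8 in wild type and 22.4 in the knockout. The BAP1 knockout list was called with another fragment length and another input, and the part of these in the difference was not tested.

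Foxo1, Foxm1, Foxj3, Foxn1, Foxr1 and Foxs1 held RNF2 only in the second libraries, with 0.208 to 2.91 kb in wild type and 0.664 to 3.85 kb in the BAP1 knockout. Foxo1, which carries insulin signals to the genes of glucose production, held the most, 2.91 and 3.85 kb, with folds of 4.56 and 13.1. Foxn1, the thymic epithelium gene mutated in nude mice, held 0.330 and 0.664 kb, and Foxm1, a driver of mitotic genes, held 0.647 and 0.844 kb. The Foxm1 peak also touched Rhno1 and the Foxj3 peak Frg2f1. Foxj3 held 1.18 and 1.25 kb, Foxr1 0.208 and 0.854 kb, and Foxs1 0.882 and 1.05 kb. In all 6 the length was greater in the knockout library, as it was at 87.7% of all genes with RNF2 only in the second libraries, and in all 6 the first libraries held no peak.

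Foxi1, Foxp3 and Foxr2 held no RNF2 in any library. Foxp3 is the factor of regulatory T cells. The RNF2 peak nearest to the Foxi1 start lay 335790 and 109587 bp away in the wild-type libraries and 364654 and 15141 bp in the BAP1 knockout libraries. For Foxp3 the nearest lay 260654 and 5780 bp away in wild type and 260379 and 5447 bp in the knockout. The nearest peaks of the deeper lists were the closer ones at both genes.

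The 3 relatives outside the rule gave both patterns. Foxa2 had RNF2 over 13284, 15948, 13192 and 15808 bp and 3 BAP1 peaks with a fold of 4.76, close to its relative Foxa1. Foxk1 and Foxk2, which encode the partners of BAP1, had no BAP1 peak. In the same library order, RNF2 covered 0, 1704, 546 and 4119 bp at Foxk1 and 0, 465, 0 and 807 bp at Foxk2.

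The genes acting with the FoxO factors and with FOXH1 were counted in the same way. Of 27 genes of the PI3K, AKT and FoxO pathway, which keeps FoxO factors out of the nucleus, 4 held RNF2 in both wild-type libraries, among them Sgk3 (a kinase), Irs1 (an insulin receptor substrate) and Ywhab (a 14-3-3 protein). This is near the 13.4% of all genes and is no result about the pathway. In the first pair 7 of the 23 without a wild-type peak were gained (Igf1r, Insr, Irs2, Mtor, Pik3r2, Sgk1 and Sirt1), against 16% of all such genes, and in the second 1 of 3 (Skp2, against 21.5%), with 0 lost in both. BAP1 was at 4 of the 27, Irs2, Mtor, Pik3r2 and Sgk3, against 4.52% of all genes. Foxo1 and Foxo4, 2 of the 4 FoxO genes, likewise lacked RNF2 in the first wild-type library. Of 19 genes of the Nodal pathway, in which FOXH1 acts, 6 held RNF2 in both wild-type libraries, among them Eomes, Gsc, Lhx1 and Mixl1, which encode transcription factors, and Lefty2, a Nodal inhibitor. The share over all genes was 13.4%. BAP1 was at 4 of the 19 (4.52% of all genes), all 4 with RNF2, among them Eomes, Gsc and Lhx1 with 5645 to 14470 bp of RNF2 in the first wild-type library. Foxh1 itself was in the group gained in the first pair, as were Acvr1b (a receptor), Lefty1, Smad2 and Smad3, 4 of the 13 pathway genes without a wild-type peak (16% of all such genes). In the second pair Nodal was gained with 177 bp and Gdf3 lost with 123 bp, lengths near the fragment length of that pair.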

How the data were processed

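The files are 7 MACS2 peak lists, 1 per ChIP library. The submitters' processing notes name GSNAP as aligner (version not given in the sources used here) and the genome as GRCm38, also called mm10. Per the file headers, peaks of each ChIP library over its input passed a q-value of 0.05 in MACS2 2.1.0.20150420 (first RNF2 libraries and BAP1) or 2.1.1.20160309 (second RNF2 libraries and RNF2 knockout). The authors deposited for each peak the pileup (a coverage signal at the summit), the −log10 p and q values and the fold enrichment (a ratio to the local background). Peak folds are the authors'.

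Peaks were laid over the span of each RefSeq protein-coding gene plus 1 kb on each side, with at least 1 bp of overlap, in Python 3.11.15 with pandas 2.3.3. Leaving out 108 genes that start before 3 Mb (Y not filtered), 21775 remained. RNF2 length is the summed length of all peaks touching the window. The overlap code was tested on simulated peaks. Gained means a peak in knockout and none in wild type. Peak lists give no read count per gene, so no counting interval was made. Some genes that enter the counts are not reported here by name. Otherwise, named with values were members with BAP1 (the top 10 by fold in full), the 5 widest, those gained or lost, those absent where a subfamily mate was present, and those with no RNF2. The members, gene lists and alternatives were chosen with earlier results of these data known. Alternatives were other windows, a −log10 q minimum of 10, summits only, shortened lists, other length measures and leaving out each library.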

Additional observations from a re-analysis of the deposited data

How the results depend on the processing

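The 18 BAP1-occupied members rest on peaks close to the cutoff of the authors' list. With a −log10 q of at least 10, BAP1 was left at 3 members (Foxb2, Foxd1 and Foxd2), also when RNF2 in both wild-type libraries was required. Leaving out each library in turn, members with RNF2 in the remaining wild-type data numbered 23 to 38, the highest without the first wild-type library, and members gained across the libraries numbered 0 to 9, the highest without the second wild-type library. Gains across all 4 libraries were 1 of 9 (Foxh1, against 1.12% of all such genes) at a −log10 q of at least 10. With all lists shortened to the shortest they were 2 of 15 (Foxa3 and Foxp4, against 2.01%). Gains in the first pair fell from 9 of 18 (16%) to 3 of 18 (5.38%) with shortened lists, and 1 of 23 (Foxn2, 17.2%) was lost there. With summits only, 1 of 21 was lost in the first pair (Foxp2, 3.85%) and 1 of 38 in the second (Foxa1, 3.03%). Gains in the second pair rose from 0 of 3 (21.5%) to 1 (Foxn1) with windows at the gene ends. They were 3 of 9 (Foxh1, Foxo4 and Foxs1, against 21.8%) at the higher q minimum and 3 of 16 (3.64%) with shortened lists. No share over all genes was computed for windows at the gene ends or for libraries left out. The cause of these changes was not tested. Over all results, 12 recomputed values moved by more than 1.5 times and 65 stayed within that margin, which allows a change such as 32 to 25 members with RNF2 in both knockout libraries under shortened lists. The ratio of median lengths ran from 1.12 (covered length inside the window) to 1.39 in the first pair and from 0.927 to 1 in the second. Counts of wider genes by BAP1 were added after seeing the data. With the second lists shortened to equal length, 5 of 18 genes with BAP1 and 17 of 20 others were wider in the knockout. By covered length inside the window, which the window itself limits, these were 0 of 18, with 14 equal, and 19 of 20. At the higher q minimum they were 1 of 3 and 17 of 29. BAP1 was then left at 3 members, and the members that lost the call count among the 29 others. The 17 of 29 and the reported 19 of 20 are therefore shares of different sets of genes. No paired analysis was possible because a fit with a replicate block needs a test, and no result comes from one. The values of wild type and knockout are instead set side by side within each pair. Calls of absence depend on the library: every member with RNF2 was longer in the second wild-type library than in the first. These 2 libraries differ in depth, version of the peak caller and fragment length together, so the part of each cannot be told apart.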
